A study of Mus musculus with 12 samples.

Results

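The transcription factor gene Myc and 9 genes that make polyamines and nucleotides were followed in resting B cells after 4 h of stimulation. Beside Myc these are Odc1, Srm and Sms of polyamine synthesis, Ppat, Paics and Impdh2 of purine synthesis, Cad and Umps of pyrimidine synthesis, and the nucleoside diphosphate kinase Nme1. They were chosen by name, as the spots whose gene name on the array equals one of these symbols, and they were read by 21 of the array's 61307 probes. Of the 50090 gene names on the array these are 10, 8 of them with more than 1 probe, and each gene is described by its brightest probe unless another is named. All 21 probes passed the filter on dim probes, and 20 of them were well above background on all 12 arrays.

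The study stimulated resting (RB) cells from the spleen of BALB/c mice, which the labels give as female and 6 weeks old, and hybridised the RNA of 6 conditions to 12 single-colour Agilent arrays, 2 per condition. The cells were obtained by depleting CD43-bearing splenocytes. The conditions were no stimulus, Pam2CSK4 (a synthetic lipopeptide that binds Toll-like receptor 2, TLR-2), an antibody against CD86, Pam2CSK4 with anti-CD86 (called TLR2.CD86 here), an antibody against CD40, and anti-CD40 with Pam2CSK4. The labels name no knockout or transgene, and all conditions share strain, cell source and the 4 h time. The labels do not say which mice gave which sample, so part of the spread between the 2 arrays of a condition may be technical. The p-values below pool that spread over all 6 conditions. The median absolute log2 difference between the 2 arrays was 0.089 in unstimulated cells and 0.105 with anti-CD40+Pam2CSK4. In the other conditions it was 0.215 to 0.327.

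Myc is a transcription factor that pairs with Max and binds DNA at E-boxes. In lymphocytes it is an early gene of activation, and it is known to drive growth by raising the enzymes that make ribosomes, nucleotides and polyamines. Odc1 makes putrescine, the first polyamine, and Srm and Sms extend it to spermidine and spermine. Ppat catalyses the first committed step of purine synthesis, Paics later steps of the same route and Impdh2 the step toward guanine nucleotides, while Cad starts and Umps completes the synthesis of UMP.

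The E-box CACGTG, which reads the same on both strands, was looked for in the promoter windows of RefSeq on build GRCm38.p6, which run from 250 bases before to 50 bases after a start site. Of the 10 genes 8 had windows, 10 windows in all, and the motif was found in 4 of these 8 genes, against 2187 of all 27025 genes in the table (8.09%) and 7.15% of its 32851 windows. The stretches of 60 bases around each match are shown because the response of these genes is set beside Myc below, with the motif in capitals. For Impdh2 the stretch is chr9:108560299-108560358 on the plus strand, with the motif before the start site. For Nme1, with 2 windows, the stretches are chr11:93968022-93968081 and chr11:93968258-93968317 on the minus strand, with the motif 24 and 13 bases before the start. For Paics it is chr5:76951072-76951131 on the plus strand, 198 bases before the start, and for Sms chrX:157492451-157492510 on the minus strand, 191 bases before the start in 1 of its 2 windows. A match describes the letters only and is no evidence of binding.
Impdh2: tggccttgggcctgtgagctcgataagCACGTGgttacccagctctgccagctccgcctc
Nme1, first: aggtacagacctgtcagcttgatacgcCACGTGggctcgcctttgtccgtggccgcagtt
Nme1, second: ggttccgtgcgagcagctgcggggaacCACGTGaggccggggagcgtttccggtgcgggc
Paics: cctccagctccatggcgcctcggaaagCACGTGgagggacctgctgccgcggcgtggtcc
Sms: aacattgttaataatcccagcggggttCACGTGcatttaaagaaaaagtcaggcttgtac

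The windows of Cad, Odc1, Ppat and Umps held no CACGTG. Ppat and Paics lie side by side, with start sites 276 bases apart on chromosome 5 and on opposite strands, Ppat on the minus strand (window chr5:76951529-76951828) and Paics on the plus strand (window chr5:76951052-76951351), so that the annotated genes overlap at their beginnings.

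The probes are 60 bases long, and those printed here are the ones on which a statement below turns. They are the dimmest Myc probe and the dimmer Odc1 probe, which depart from the brightest probe of their gene, 1 probe each of the neighbours Ppat and Paics, the brightest Umps probe, and both Impdh2 probes, whose 44 shared bases are in capitals. The overlap means that the Impdh2 probes are not independent readings. The array's annotation also lists predicted transcripts for the brightest Sms, Ppat and Odc1 probes and the dimmer Impdh2 probe, so near-identical copies could add to these signals.
Myc, dimmest: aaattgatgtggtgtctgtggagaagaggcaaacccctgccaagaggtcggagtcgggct
Odc1, dimmer: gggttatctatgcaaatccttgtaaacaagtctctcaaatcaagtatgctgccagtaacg
Ppat, dimmer: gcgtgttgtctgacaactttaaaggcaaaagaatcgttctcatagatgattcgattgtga
Paics, dimmer: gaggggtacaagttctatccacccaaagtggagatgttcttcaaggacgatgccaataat
Umps, brightest: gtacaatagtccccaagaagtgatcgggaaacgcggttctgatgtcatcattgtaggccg
Impdh2, brightest: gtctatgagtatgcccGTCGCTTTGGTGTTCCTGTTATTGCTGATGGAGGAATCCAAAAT
Impdh2, dimmer: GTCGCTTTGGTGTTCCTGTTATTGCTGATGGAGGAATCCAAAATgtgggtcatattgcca

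Values are log2 processed signal minus the 75th percentile of the same array, and a difference between conditions is a log2 fold change. Across arrays 46.6% to 60.6% of probes were well above background, and no value of the 21 probes was flagged as saturated. The arrays lay on 2 slides, which were also scanned as 2 runs. Slide 1 held 8 arrays, namely both unstimulated, both anti-CD40+Pam2CSK4 and replicate 1 of the other conditions, and slide 2 held the remaining 4. In 39 of 40 pairs of gene and condition the array on slide 2 was the lower one. The mean gap ran from 0.08 for Ppat to 0.40 for Umps on the log2 scale. The median of all probes tested fell by 0.14, and that of tested probes brighter than the median of these genes fell by 0.21. Both medians were lower in all 4 conditions, so the shift was not particular to these genes. The share of all probes that fell is not given. The unstimulated cells were on slide 1 alone, so the comparisons are given without and with slide as a term in the limma fit, and the comparison of anti-CD40+Pam2CSK4 with unstimulated cells lies wholly within slide 1. The median processed intensity was 51.3 on anti-CD40 replicate 2 and 17.3 to 33.5 on the other arrays. With 46.6% to 60.6% of probes well above background, the array median is set by probes near background on most arrays. Scaling to the array median in place of the 75th percentile moved the median log2 fold change of all probes against unstimulated cells. It was then -0.58 for anti-CD40, -0.32 for TLR2.CD86, -0.27 for Pam2CSK4, -0.19 for anti-CD86 and -0.10 for anti-CD40+Pam2CSK4, where the 75th percentile gave -0.07 to 0.01. For the brightest probe of each chosen gene, it is stated where median scaling ended a call or turned a direction against unstimulated cells. Departures from the sum of single effects are not given under that scaling. The dimmer probes and the genes of the pathway lists below were not examined under that scaling, so whether their calls hold there was not tested. All 5 stimulated conditions were compared with the same 2 unstimulated arrays.

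Of the 10 genes, by the brightest probe of each, Myc had the largest change with anti-CD40+Pam2CSK4, anti-CD40 and Pam2CSK4, whereas Nme1 had it with anti-CD86 and Sms with TLR2.CD86. Its log2 signal was 4.95 and 5.02 in unstimulated cells and 7.28 and 7.27 after anti-CD40+Pam2CSK4. It was 6.77 and 6.39 after anti-CD40 alone, 5.96 and 5.67 after Pam2CSK4 alone and 5.63 and 5.28 after TLR2.CD86. After anti-CD86 alone it was 4.72 and 4.56, below both unstimulated arrays. No condition overlapped another on this probe, so the order from anti-CD40+Pam2CSK4 through anti-CD40, Pam2CSK4, TLR2.CD86 and unstimulated down to anti-CD86 held on every array.

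**Figure D1:**
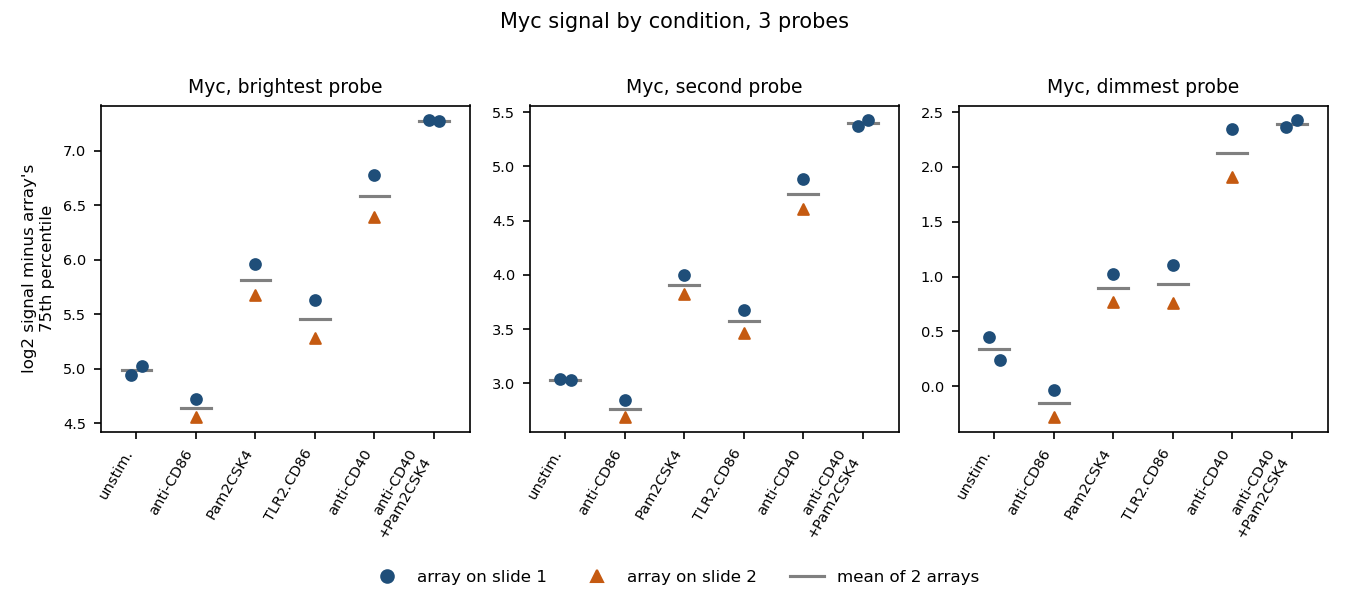
Log2 signal of the 3 Myc probes (vertical axis, relative to the 75th percentile of each array) in the 6 conditions. Circles are arrays on slide 1, triangles arrays on slide 2 and bars the mean of 2 arrays; both anti-CD40+Pam2CSK4 arrays sit above the arrays of every other condition on all 3 probes.

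Against unstimulated cells Myc rose 4.90-fold with anti-CD40+Pam2CSK4 (log2 fold change 2.29 ± 0.18 SE, adjusted p = 0.000242) and 3.03-fold with anti-CD40 (1.60 ± 0.18, adjusted p = 0.00242). The rise with anti-CD40 was 1.79 within slide 1 and 1.75 with slide in the model, and it was 1.03 with adjusted p = 0.173 under median scaling. The other probes gave 2.36 and 2.05 for anti-CD40+Pam2CSK4 and 1.71 and 1.78 for anti-CD40, all past the threshold. Both Pam2CSK4 arrays were above both unstimulated arrays, with a log2 fold change of 0.83 ± 0.18 that missed the threshold (adjusted p = 0.125) but passed it once slide was a term (0.98 ± 0.07, adjusted p = 0.00282). TLR2.CD86 gave 0.47 ± 0.18 (adjusted p = 0.121), which slide as a term raised to 0.62 ± 0.07 (adjusted p = 0.00175). The second Myc probe passed without the slide term, at 0.54 ± 0.14 (adjusted p = 0.0475).

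Anti-CD86 did not raise Myc. Alone it gave -0.34 ± 0.18 (adjusted p = 0.294), or -0.20 ± 0.07 in the fit with slide (adjusted p = 0.0855). Added to Pam2CSK4 it gave -0.36 ± 0.18 (adjusted p = 0.560), with -0.32 within slide 1 and -0.40 within slide 2, and the slide term brought this past the threshold (-0.36 ± 0.07, adjusted p = 0.0249). The dimmest probe, printed above, read 1.11 and 0.76 with TLR2.CD86 and 1.02 and 0.77 with Pam2CSK4, so the order of these conditions was not the same on every probe. Pam2CSK4 added to anti-CD86 gave 0.82 ± 0.18 (adjusted p = 0.220), which was 0.91 within slide 1 and 0.72 within slide 2, and passed in the fit with slide (adjusted p = 0.00341).

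Srm, spermidine synthase, was the one of Odc1, Srm and Sms whose brightest probe was called higher in both anti-CD40 conditions, as that of Myc was. Its log2 signal was 3.47 and 3.48 in unstimulated cells, 4.36 and 3.98 with anti-CD40 and 4.76 and 4.80 with anti-CD40+Pam2CSK4. It read 3.80 and 3.53 with Pam2CSK4, 3.82 and 3.44 with TLR2.CD86 and 3.59 and 3.27 with anti-CD86. The anti-CD40 arrays stood above all arrays without anti-CD40, whereas the TLR2.CD86 and anti-CD86 arrays lay on both sides of the unstimulated ones. Srm rose 2.47-fold with anti-CD40+Pam2CSK4 (log2 fold change 1.31 ± 0.19, adjusted p = 0.0035) and 1.62-fold with anti-CD40 (0.70 ± 0.19, adjusted p = 0.0434). Within slide 1 the anti-CD40 value was 0.89. Under median scaling it was 0.13 and did not pass, and leaving out any of the 4 arrays compared also ended that call.

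Odc1, the enzyme at the head of the pathway, gave a different picture on its brightest probe. That probe reached a processed intensity of 59559 without a saturation flag, and its log2 signal was 7.42 and 7.45 unstimulated, 7.63 and 7.26 with anti-CD40 and 7.66 and 7.62 with anti-CD40+Pam2CSK4. It was 7.33 and 7.08 with Pam2CSK4, 7.18 and 6.80 with TLR2.CD86 and 7.03 and 6.88 with anti-CD86, each below both unstimulated arrays. None of the 5 log2 fold changes passed the threshold, from -0.48 ± 0.18 for anti-CD86 (adjusted p = 0.160) to 0.21 ± 0.18 for anti-CD40+Pam2CSK4 (adjusted p = 0.461). In the fit with slide Odc1 was lower with anti-CD86 (-0.33, adjusted p = 0.0196) and TLR2.CD86 (-0.30, adjusted p = 0.0235) and higher with anti-CD40+Pam2CSK4 (0.21, adjusted p = 0.0476).

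The dimmer Odc1 probe disagreed with the brightest one in 3 conditions. It read 1.68 and 1.70 unstimulated and 2.33 and 2.06 with anti-CD40, a log2 fold change of 0.50 ± 0.12 (adjusted p = 0.0278) where the brightest probe gave 0.02. With anti-CD40+Pam2CSK4 it read 2.06 and 2.08, higher by 0.38, where the brightest probe also read above both unstimulated arrays. With anti-CD86 it read 1.91 and 1.83 and with TLR2.CD86 1.95 and 1.85, above both unstimulated arrays, and these differences passed in the fit with slide (0.25, adjusted p = 0.0357, against 0.27, adjusted p = 0.0206). The direction for Odc1 under the CD86 conditions thus depends on the probe.

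Sms, spermine synthase, fell with TLR2.CD86, where Srm did not pass the test. Its log2 signal was 4.51 and 4.60 unstimulated and 4.10 and 3.91 with TLR2.CD86, and it fell 1.46-fold (log2 fold change -0.55 ± 0.13, adjusted p = 0.039). Pam2CSK4 gave 4.24 and 3.99 and anti-CD86 4.16 and 4.15, each below both unstimulated arrays, with log2 fold changes of -0.44 (adjusted p = 0.208) and -0.40 (adjusted p = 0.127). With anti-CD40 it read 4.53 and 4.34 and with anti-CD40+Pam2CSK4 4.46 and 4.47, close to the unstimulated level. The call for TLR2.CD86 was lost when any of the 4 arrays compared was left out and under median scaling, and the value within slide 1 was -0.45. Sms in the fit with slide was lower for all of TLR2.CD86 (-0.47, adjusted p = 0.00481), anti-CD86 (-0.32, adjusted p = 0.0221) and Pam2CSK4 (-0.35, adjusted p = 0.034). The dimmer Sms probe gave -0.40 ± 0.20 (adjusted p = 0.211) for TLR2.CD86.

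**Figure D2:**
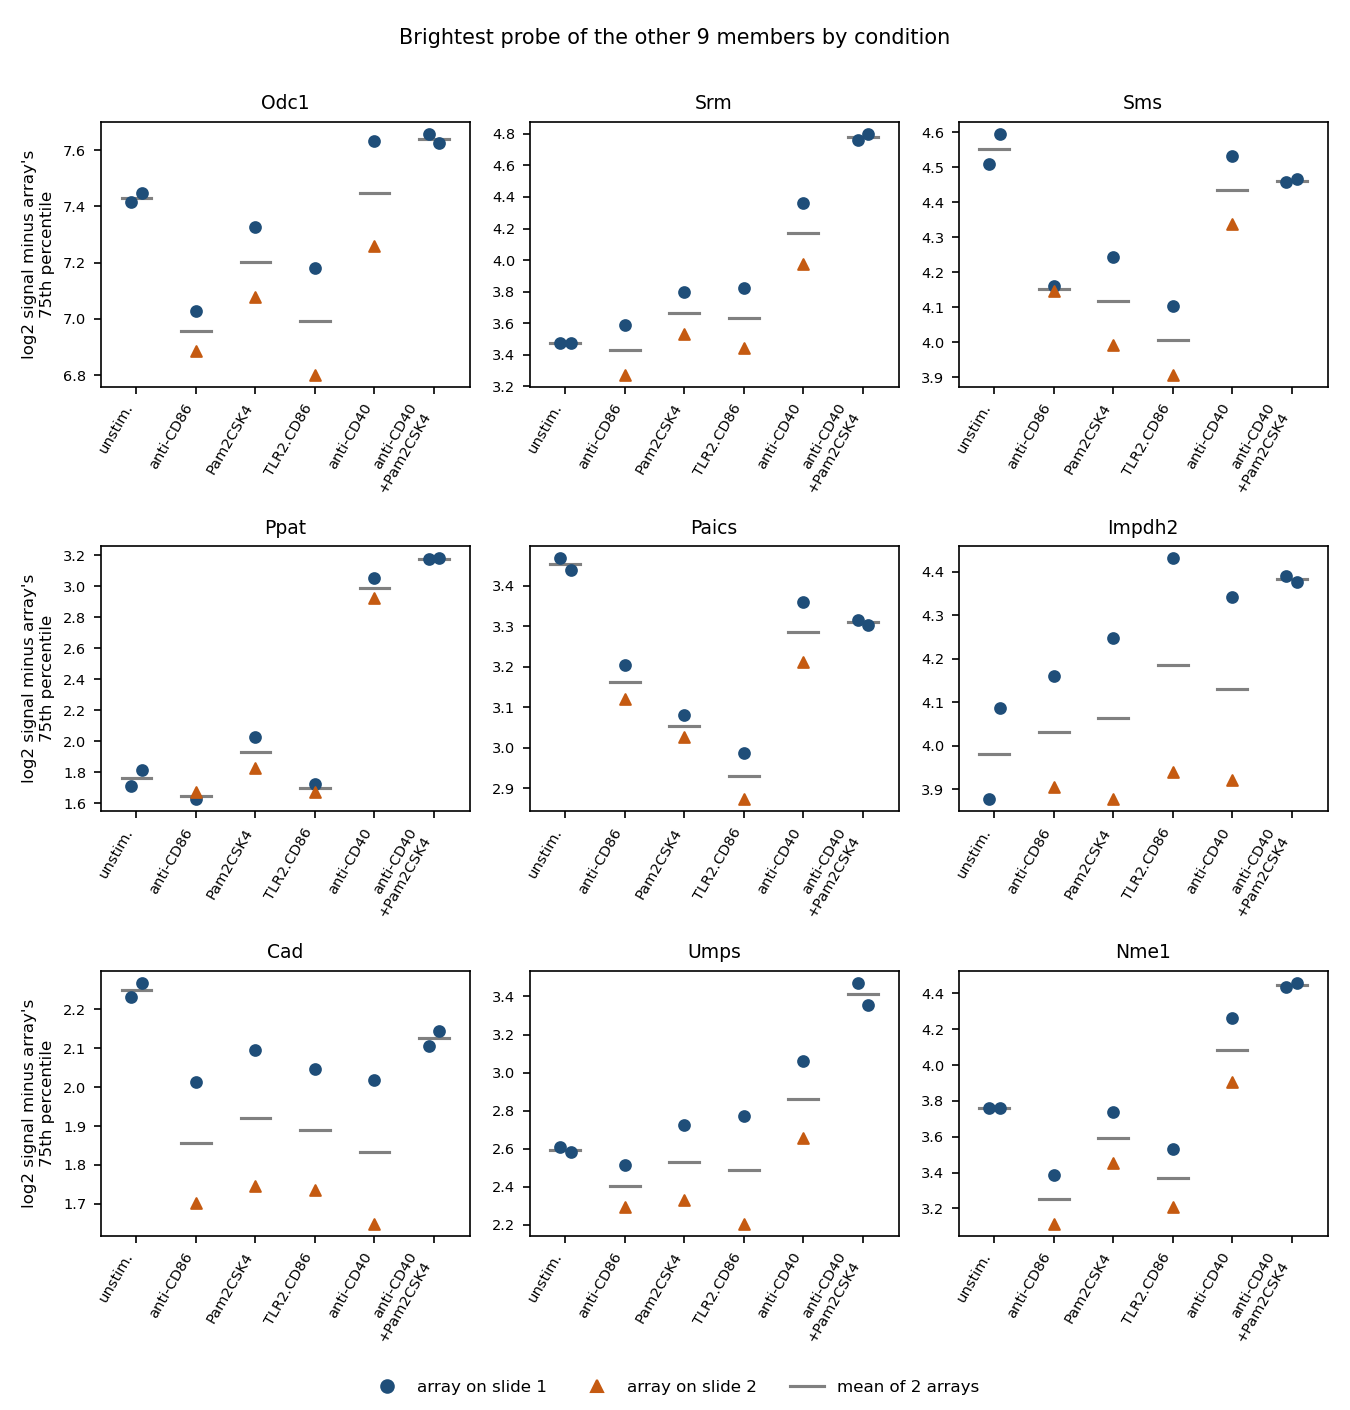
Log2 signal of the brightest probe of the 9 genes other than Myc (vertical axis, relative to the 75th percentile of each array, with a scale of its own in each panel) in the 6 conditions. Circles are arrays on slide 1, triangles arrays on slide 2 and bars the mean of 2 arrays; Ppat, Srm, Umps and Nme1 are highest with anti-CD40+Pam2CSK4, Paics and Cad are highest in unstimulated cells.

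Ppat, the amidophosphoribosyltransferase that commits PRPP to purines, rose in both conditions with anti-CD40 and passed the test in no other. Its log2 signal was 1.71 and 1.81 unstimulated, 3.05 and 2.93 with anti-CD40 and 3.17 and 3.18 with anti-CD40+Pam2CSK4. It read 2.03 and 1.83 with Pam2CSK4, 1.72 and 1.67 with TLR2.CD86 and 1.63 and 1.67 with anti-CD86. All 4 arrays with anti-CD40 lay above the highest of the other 8, which read 2.03. Ppat rose 2.67-fold with anti-CD40+Pam2CSK4 (log2 fold change 1.42 ± 0.11, adjusted p = 0.000257) and 2.34-fold with anti-CD40 (1.23 ± 0.11, adjusted p = 0.00124), while Pam2CSK4 gave 0.17 ± 0.11 (adjusted p = 0.465). Of the 10 genes it was the one with the smallest gap between slides, 0.08. Its dimmer probe also rose, by 0.92 ± 0.19 (adjusted p = 0.0128) and 0.73 ± 0.19 (adjusted p = 0.0361). Within slide 1 the anti-CD40 value was 1.29, and under median scaling the values of the brightest probe were 1.31 and 0.66 and neither passed.

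Paics, the neighbour of Ppat as shown above, did not rise in any condition on its brightest probe. Its log2 signal was 3.47 and 3.44 unstimulated, 3.36 and 3.21 with anti-CD40 and 3.32 and 3.30 with anti-CD40+Pam2CSK4. It read 3.21 and 3.12 with anti-CD86, 3.08 and 3.03 with Pam2CSK4 and 2.99 and 2.87 with TLR2.CD86, and all 10 stimulated arrays were below both unstimulated arrays. It fell 1.44-fold with TLR2.CD86 (log2 fold change -0.52 ± 0.10, adjusted p = 0.0248), and by 0.47 within slide 1. The call was lost without any of the 4 arrays compared and under median scaling. Paics was also lower in the fit with slide with Pam2CSK4 (-0.35, adjusted p = 0.0149), anti-CD86 (-0.24, adjusted p = 0.0164) and anti-CD40+Pam2CSK4 (-0.14, adjusted p = 0.0476), and TLR2.CD86 was below anti-CD86 alone (-0.23 ± 0.05, adjusted p = 0.0404). The dimmer Paics probe gave -0.36 ± 0.19 (adjusted p = 0.242) for TLR2.CD86. With anti-CD40 it read -0.0058 and -0.31, on both sides of its unstimulated values of -0.19 and -0.14.

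Impdh2, which makes XMP from IMP, differed by a mean of 0.38 between the slides. It read 3.88 and 4.09 unstimulated, 4.39 and 4.38 with anti-CD40+Pam2CSK4, 4.34 and 3.92 with anti-CD40 and 4.43 and 3.94 with TLR2.CD86. With Pam2CSK4 it read 4.25 and 3.88 and with anti-CD86 4.16 and 3.91. The 4 arrays on slide 2 lay between 3.88 and 3.94, within the range of the unstimulated arrays or at its edge. The log2 fold changes ran from 0.05 for anti-CD86 to 0.40 ± 0.22 for anti-CD40+Pam2CSK4 (adjusted p = 0.247). Fitted with slide they passed for anti-CD40+Pam2CSK4 (0.40, adjusted p = 0.00975), TLR2.CD86 (0.40, adjusted p = 0.0177) and anti-CD40 (0.34, adjusted p = 0.0276), but without that term and under median scaling the latter pair read -0.08 and -0.42.

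Umps, the enzyme that makes UMP from orotate, rose with anti-CD40+Pam2CSK4. It read 2.61 and 2.58 unstimulated and 3.47 and 3.36 with anti-CD40+Pam2CSK4, a 1.77-fold rise (log2 fold change 0.82 ± 0.23, adjusted p = 0.0412). With anti-CD40 it read 3.06 and 2.66, both above the unstimulated arrays, a difference of 0.26 ± 0.23 (adjusted p = 0.444) that was 0.47 within slide 1, 0.46 (adjusted p = 0.00921) with the slide term and -0.30 under median scaling. Pam2CSK4 gave 2.73 and 2.33, TLR2.CD86 2.77 and 2.21 and anti-CD86 2.51 and 2.29, with log2 fold changes of -0.07, -0.10 and -0.19, none past the threshold. The dimmer Umps probe rose by 0.92 ± 0.18 (adjusted p = 0.01) with anti-CD40+Pam2CSK4.

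Cad, the enzyme of the first steps of pyrimidine synthesis, did not share that rise. It read 2.23 and 2.27 unstimulated, 2.11 and 2.15 with anti-CD40+Pam2CSK4, 2.02 and 1.65 with anti-CD40 and 2.10 and 1.74 with Pam2CSK4. TLR2.CD86 gave 2.05 and 1.74 and anti-CD86 2.01 and 1.70, and all stimulated arrays lay below both unstimulated arrays. None of the 5 log2 fold changes, from -0.12 to -0.42, passed the threshold, and with the slide term those with anti-CD40 (-0.25, adjusted p = 0.00992), anti-CD86 (-0.23, adjusted p = 0.0195) and TLR2.CD86 (-0.19, adjusted p = 0.0275) did. A second Cad probe, which shares 40 bases with the brightest, read alike, and the other probes did not. One gave log2 fold changes between -0.28 and 0.15. The dimmest was well above background on 9 arrays and on only 1 of the 2 unstimulated ones, so no difference from these is given for it.

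Nme1, which passes phosphate between nucleoside triphosphates and diphosphates, rose 1.61-fold with anti-CD40+Pam2CSK4 (log2 fold change 0.69 ± 0.18, adjusted p = 0.0337). It read 3.76 and 3.76 unstimulated, 4.43 and 4.46 with anti-CD40+Pam2CSK4 and 4.26 and 3.90 with anti-CD40, where the difference was 0.32 ± 0.18 (adjusted p = 0.246), 0.50 within slide 1, 0.48 (adjusted p = 0.000904) with the slide term and -0.24 under median scaling. With Pam2CSK4 it read 3.74 and 3.45, with TLR2.CD86 3.53 and 3.21 and with anti-CD86 3.39 and 3.11. The last 3 conditions lay below the unstimulated arrays, none past the threshold, and with the slide term anti-CD86 (-0.35, adjusted p = 0.00486) and TLR2.CD86 (-0.23, adjusted p = 0.0137) passed. Without any of the 4 arrays compared, the calls of Nme1 and Umps with anti-CD40+Pam2CSK4 were lost.

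Counted together, 5 of the 10 genes were higher with anti-CD40+Pam2CSK4 than in unstimulated cells (Myc, Ppat, Srm, Umps and Nme1) and none was lower, where 8.54% of the 31599 probes tested were called higher. The median log2 fold change was 0.54 over the 10 genes and 0.01 over all probes tested. Under median scaling all 5 stayed above 0 and Myc alone passed, 1 of 10. With anti-CD40 alone 3 were higher (Myc, Ppat and Srm), where 6.16% of all probes were, and the medians were 0.21 and -0.02. TLR2.CD86 had 2 lower (Sms and Paics), where 7.38% of all probes were lower, and medians of -0.23 and -0.03.

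Pam2CSK4 and anti-CD86 alone had 0 of 10 genes past the adjusted threshold in limma, where 0.146% and 2.17% of all probes passed in either direction, and 3 and 4 of the 10 had an unadjusted p under 0.05. Fitted with slide, Pam2CSK4 had 4 called (Myc and Srm higher, Sms and Paics lower, where 11.1% of all probes passed) and anti-CD86 had 5 lower (Odc1, Sms, Nme1, Cad and Paics, where 15.5% of all probes were). TLR2.CD86 then had 8 called, 3 higher (Myc, Srm and Impdh2) and 5 lower (Odc1, Sms, Nme1, Cad and Paics), where 35.1% of all probes passed. Anti-CD40 had 6 higher, where 15.7% of all probes were, and 1 lower (Cad), where 21.6% were. Anti-CD40+Pam2CSK4 had 7 higher, where 23.8% of all probes were, and 1 lower (Paics), where 23.7% were. Srm with Pam2CSK4 and with TLR2.CD86 (0.36 and 0.33 with the slide term) read -0.0036 and -0.13 under median scaling without that term.

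**Figure D3:**
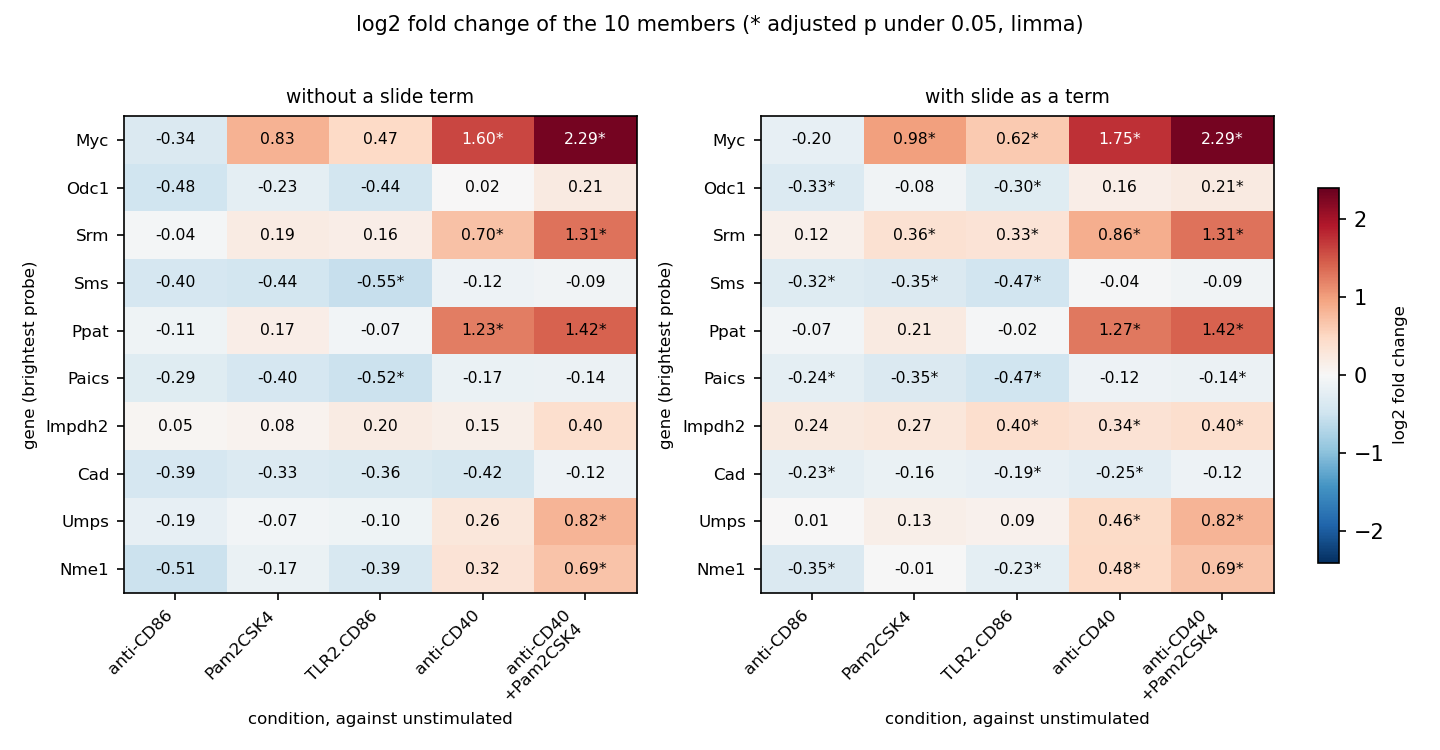
Log2 fold change against unstimulated cells of the 10 genes (rows, brightest probe) in the 5 stimulated conditions (columns), fitted without slide on the left and with slide as a term on the right. Red is higher, blue is lower and an asterisk marks an adjusted p under 0.05 (limma). The column of anti-CD40+Pam2CSK4 holds 5 marked rises on the left, and 7 marked rises and 1 marked fall on the right.

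Anti-CD40 added to Pam2CSK4 raised 5 of the 10 genes, where 6.73% of all probes were higher. Myc was 2.75-fold higher with both than with Pam2CSK4 alone (log2 difference 1.46 ± 0.18, adjusted p = 0.00321, and 1.32 within slide 1). Ppat was 2.38-fold higher (1.25 ± 0.11, adjusted p = 0.000919) and Srm 2.16-fold higher (1.11 ± 0.19, adjusted p = 0.0111), with Umps at 0.89 ± 0.23 (adjusted p = 0.0471) and Nme1 at 0.85 ± 0.18 (adjusted p = 0.0237). Fitted with slide, 8 were higher, where 17.3% of all probes were, Odc1, Sms and Paics joining them. By the brightest probe none of the 10 genes overlapped between these conditions, so the lack of overlap does not set the called genes apart. The share of all probes without overlap is not given. Under median scaling 0 of 10 passed in limma. Without either array with both agents, or without Pam2CSK4 replicate 2, 2 of the 10 passed, Myc and Ppat, and without Pam2CSK4 replicate 1 4 passed, Umps dropping out.

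Pam2CSK4 added to anti-CD40 had 0 of 10 genes past the threshold in limma, where 2.91% of all probes passed, and 3 had an unadjusted p under 0.05. The log2 difference was 0.69 ± 0.18 for Myc (adjusted p = 0.0934, and 0.50 within slide 1) and 0.61 ± 0.19 for Srm (adjusted p = 0.155, and 0.42 within slide 1). Slide as a term brought 4 genes past it, where 8.83% of all probes were higher, namely Myc (0.55, adjusted p = 0.00562), Srm (0.44, adjusted p = 0.00511), Umps (0.36, adjusted p = 0.0483) and Nme1 (0.21, adjusted p = 0.0399). The dimmest Myc probe gave 0.27 ± 0.20 (adjusted p = 0.488), or 0.11 fitted with slide (adjusted p = 0.466), smaller than on the other Myc probes.

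Anti-CD86 added to Pam2CSK4 had 0 of 10 genes past the threshold in limma, where 0.0633% of all probes passed, and 0 of the 10 had an unadjusted p under 0.05. Fitted with slide, 2 were lower, Myc and Nme1 (-0.22 ± 0.05, adjusted p = 0.0349), where 5.25% of all probes were. Pam2CSK4 added to anti-CD86 had 0 of 10 past the threshold, where 0.225% of all probes passed, and 1 had an unadjusted p under 0.05. Slide as a term let 2 pass, Myc higher and Paics lower, where 7.74% of all probes passed.

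The combined effect was also set against the sum of the single effects on the log2 scale. For anti-CD86 with Pam2CSK4, 0 of 10 genes departed from that sum in limma without or with the slide term, where 0.019% and 0.234% of all probes did, and 0 and 1 of the 10 had an unadjusted p under 0.05. For anti-CD40 with Pam2CSK4 the counts were also 0 and 0, where 1.16% and 8.59% of all probes departed, with 3 and 5 genes at an unadjusted p under 0.05. The departure of Myc was -0.14 ± 0.25 (adjusted p = 0.733), or -0.44 ± 0.11 fitted with slide (adjusted p = 0.0552). Fitted with slide, the second Myc probe gave -0.43 (adjusted p = 0.0321) and the dimmest -0.61 (adjusted p = 0.0438), a combined rise smaller than the sum. Without slide they gave -0.22 (adjusted p = 0.479) and -0.28 (adjusted p = 0.515). For Srm the departure was 0.42 ± 0.27 (adjusted p = 0.358). Median scaling moved the median departure of all probes for anti-CD40 with Pam2CSK4 from 0.16 to 0.81. Whether the direction for Myc holds under that scaling was not tested.

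Other genes of the same pathways were read from 5 lists, of the Myc network, polyamines, purines, pyrimidines with deoxynucleotides, and folate with one-carbon units, each gene by its brightest probe. With anti-CD40+Pam2CSK4 the Myc network list had 1 of 11 tested genes higher and 1 lower, where 8.54% of all probes were higher and 9.7% lower. Fitted with slide it had 3 and 4, where 23.8% and 23.7% of all probes were called. Zbtb17 (Miz-1, a partner through which Myc represses genes) rose by 0.70 ± 0.18 (adjusted p = 0.0284) and Mycl1, a gene of the Myc family, fell by 1.34 ± 0.21 (adjusted p = 0.00473). With anti-CD40 alone 3 were lower and 0 higher, where 10.7% of all probes were lower, and in the fit with slide 5 were lower and 3 higher, where 21.6% and 15.7% were. Mxd4 and Mnt, repressors that compete for Max, fell by 0.83 (adjusted p = 0.0215) and 0.71 (adjusted p = 0.0332), and Mycl1 by 0.78 (adjusted p = 0.0418). Mxi1 and Mxd1, of the same group of repressors, went the other way. In the fit with slide they were higher with anti-CD40 (0.51, adjusted p = 0.00139, and 0.31, adjusted p = 0.029). In TLR2.CD86 cells the 1 gene called was Mycl1, which fell by 1.46 ± 0.21 (adjusted p = 0.0118), where 7.38% of all probes were lower and 3.41% higher. Fitted with slide 2 were higher and 2 lower, where 14.5% and 20.6% of all probes were.

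Of 16 other polyamine genes 1 was higher and 5 were lower with anti-CD40+Pam2CSK4 (all probes 8.54% and 9.7%), or 4 and 6 fitted with slide (all probes 23.8% and 23.7%). Mat2a, which makes the S-adenosylmethionine that polyamine synthesis consumes, rose by 1.18 ± 0.18 (adjusted p = 0.00428). Mat2b, the regulatory partner of that enzyme, fell by 0.69 (adjusted p = 0.00453), Sat1, which acetylates polyamines for export, by 0.68 (adjusted p = 0.0191) and Dohh, which acts in hypusine synthesis, by 0.66 (adjusted p = 0.0352). With TLR2.CD86 4 were lower and 0 higher (all probes 7.38% and 3.41%), or 5 and 1 fitted with slide (all probes 20.6% and 14.5%). The falls were led by Paox, a polyamine oxidase (fell by 0.81, adjusted p = 0.0195).

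Of 14 other purine genes 2 were higher and 0 lower with anti-CD40+Pam2CSK4 (all probes 8.54% and 9.7%). Fitted with slide the balance turned, with 4 higher and 5 lower (all probes 23.8% and 23.7%). The 2 called without slide were Gart (0.80 ± 0.16, adjusted p = 0.0122) and Atic (0.73 ± 0.15, adjusted p = 0.0142), enzymes of steps between those of Ppat and IMP. With TLR2.CD86 3 were lower (Adssl1, Hprt1 and Gmps, from -0.81 to -0.64) and 0 higher (all probes 7.38% and 3.41%). Fitted with slide these counts were 7 and 2 (all probes 20.6% and 14.5%).

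Of 22 pyrimidine and deoxynucleotide genes 1 was higher and 5 were lower with anti-CD40+Pam2CSK4 (all probes 8.54% and 9.7%), and 1 and 8 with anti-CD40 (all probes 6.16% and 10.7%). Fitted with slide these were 2 and 11 (all probes 23.8% and 23.7%) and 1 and 15 (all probes 15.7% and 21.6%). Ctps, which makes CTP from UTP, rose by 0.98 ± 0.16 (adjusted p = 0.00531). Dck, the deoxycytidine kinase of the salvage route, fell by 1.32 ± 0.11 (adjusted p = 0.000351) and by 1.35 ± 0.11 (adjusted p = 0.00098) with anti-CD40 alone. With TLR2.CD86 6 were lower and 0 higher (all probes 7.38% and 3.41%), or 10 and 1 fitted with slide (all probes 20.6% and 14.5%). The falls were led by Nme4 (fell by 1.26, adjusted p = 0.0153) and the thymidylate synthase gene Tyms (fell by 1.03, adjusted p = 0.0109).

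Of 9 folate and one-carbon genes 3 were higher and 3 lower with anti-CD40+Pam2CSK4 (all probes 8.54% and 9.7%), or 4 and 4 fitted with slide (all probes 23.8% and 23.7%). Shmt1 (1.13 ± 0.24, adjusted p = 0.016) and Shmt2 (1.12 ± 0.21, adjusted p = 0.00878), which load one-carbon units on folate, rose, as did Mthfd2 (0.69 ± 0.15, adjusted p = 0.0151), which oxidises them there. Phgdh and Psph, which make serine, fell by 0.67 (adjusted p = 0.042) and 0.56 (adjusted p = 0.015). Aldh1l1, a folate dehydrogenase, was at least 1.54-fold lower (adjusted p = 0.0017), a bound set by the lowest signal well above background, since the gene cleared background in unstimulated cells and on 0 of the 2 arrays with both agents. Across conditions the Aldh1l1 signal was highest in unstimulated cells and lowest with both agents, as were the liver markers described below. With Pam2CSK4 alone no gene of the 5 lists passed, and with anti-CD86 alone Tyms did (fell by 0.78, adjusted p = 0.0436). Fitted with slide, 1 of the 72 list genes was higher and 9 lower with Pam2CSK4, where 11.1% of all probes passed, and 4 higher and 22 lower with anti-CD86, where 28.5% passed. The median log2 fold change with anti-CD40+Pam2CSK4 was -0.0034 for the Myc network, -0.11 for polyamines, 0.08 for purines, -0.26 for pyrimidines and -0.19 for folate genes, beside 0.01 for all probes.

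**Figure D4:**
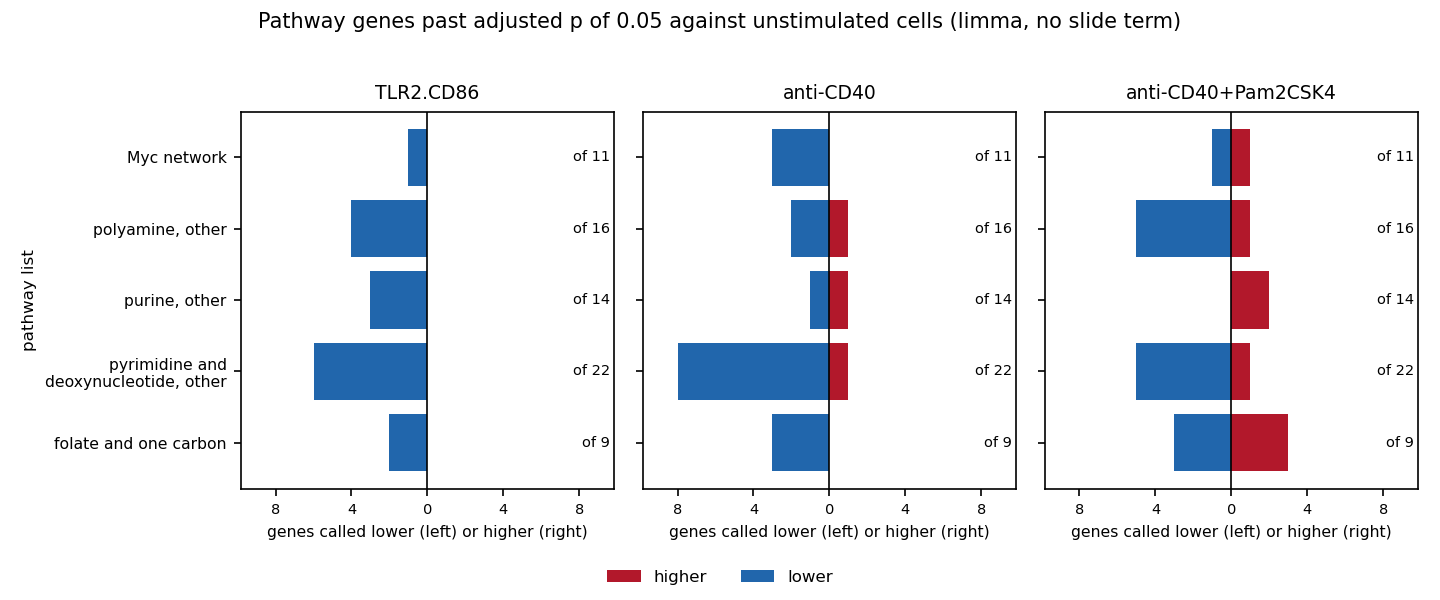
Number of genes in each of the 5 pathway lists (vertical axis) called lower (blue, to the left) or higher (red, to the right) than in unstimulated cells at an adjusted p under 0.05 in limma without a slide term, for 3 conditions. The number of genes tested stands at the right of each panel. With TLR2.CD86 all calls are to the left (all probes 7.38% lower and 3.41% higher). With anti-CD40+Pam2CSK4 each list has at least 1 gene to the right (all probes 8.54% higher and 9.7% lower).

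The labelled cell type was checked against marker genes. All 8 B cell markers were well above background on every array, with a summed level of 479 to 746 on a linear scale on which the 75th percentile of an array is 1, and it was highest with anti-CD40+Pam2CSK4 (683 and 746). All 8 myeloid markers were also well above background, with a summed level of 495 and 526 in unstimulated cells, 438 and 494 with anti-CD40+Pam2CSK4 and 350 to 451 in the other conditions. T cell markers summed to 9.49 to 14.8 and red cell markers to 58.4 to 106. Liver markers, of which 6 of the 7 listed are on the array, summed to 9.34 and 9.43 in unstimulated cells, 4.72 to 6.96 in the 4 conditions split between slides and 0.52 and 0.67 with anti-CD40+Pam2CSK4, and Ttr was below background on every array. The part of these shifts in the rises and falls with anti-CD40+Pam2CSK4, that of Aldh1l1 among them, was not tested. In bulk RNA of this kind, a smaller share of cells with a transcript and less transcript per cell cannot be told apart.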

How the data were processed

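RNA of splenic resting B cells was hybridised to 12 single-colour Agilent arrays in 6 conditions, 2 arrays each. Per the file headers, the intensity values are the processed signals of Agilent Feature Extraction 10.5.1.1, deposited as scanner output. A series table of log2 values, likewise deposited by the authors, equals log2 of these intensities minus 1 constant per array lying 0.0060 to 0.012 below its 75th percentile; it was used as an alternative. The submitters' processing notes name GeneSpring GX.

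Control spots and outlier flags were left out, spots of a probe averaged, log2 processed signal scaled to the 75th percentile of each array, and 31669 probes kept that rose well above background on each array of at least 1 condition. Of these 70 lacked a value, and 31599 were tested in limma 3.58.1 (R 4.3.3) over all 6 conditions, with Benjamini-Hochberg adjustment over all of them and a threshold of 0.05. The scripts were tested on simulated data. Tables and plots were made with Python 3.11.15, pandas 2.3.3, numpy 2.4.6 and matplotlib 3.10.9. The slide was read from the scanner files and entered as a term in a second fit. The arrays' number limits the precision.

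The 10 genes and the pathway lists were chosen with earlier results of these data known. All 10 were named, and from each list only genes past the threshold, at most the 3 with the largest and the 3 with the smallest log2 fold change per comparison. Replicate numbers of the 4 conditions split between slides deviated together (r 0.54 to 0.67), and other pairs did not (r -0.11 to 0.07), so the numbers were not taken to pair the samples. Other backgrounds, scalings, filters, blocks, probe summaries and omitted arrays were tried, and the fit on slide 1 alone was chosen after seeing the data. Promoter windows came from RefSeq on GRCm38.p6, where Myc and Srm had no match.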

Additional observations from a re-analysis of the deposited data

Results flagged for a closer look

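On 2 of the 3 Myc probes, the effect of Pam2CSK4 differed between cells with and without anti-CD40 by the interaction test in limma with slide as a term. The second probe gave -0.43 ± 0.08 SE (adjusted p = 0.0321) and the dimmest -0.61 ± 0.13 (adjusted p = 0.0438), a smaller Pam2CSK4 effect in the presence of anti-CD40. The brightest probe gave -0.44 ± 0.11 (adjusted p = 0.0552), and without the slide term the values were -0.22, -0.28 and -0.14, none past the threshold. Array-median scaling moved the median interaction of all probes from 0.16 to 0.81, and the Myc values under it are not given. With 2 arrays per condition no array could be tested as an outlier.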

How the results depend on the processing

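Of 990 values of the 10 genes under the alternatives, 830 kept their direction and side of the threshold, 67 lost the call, 56 gained it and 37 changed sign, none of the last having been called at first (largest size 0.32). With slide as a term the numbers of the 10 genes called moved from 0 to 4 for Pam2CSK4, 0 to 5 for anti-CD86, 2 to 8 for TLR2.CD86, 3 to 7 for anti-CD40 and 5 to 8 for anti-CD40+Pam2CSK4, and to 2, 2, 8 and 4 for TLR2.CD86 against Pam2CSK4, against anti-CD86, and anti-CD40+Pam2CSK4 against Pam2CSK4 and against anti-CD40 (0, 0, 5 and 0 without it). Scaling to the array median left 132 of all probes tested called for TLR2.CD86, 348 for anti-CD40, 464 for anti-CD40+Pam2CSK4 and 241 for that against Pam2CSK4. The 10 genes then had 0, 0, 1 and 0 called. Without the filter on dim probes these were 0 for TLR2.CD86, 3 for anti-CD40+Pam2CSK4 and 2 against Pam2CSK4. Quantile normalization gave 1 for Pam2CSK4, and normexp 2 for Pam2CSK4, 2 for anti-CD86, 1 for TLR2.CD86 against anti-CD86 and 1 for anti-CD40+Pam2CSK4 against anti-CD40. Fits on the arrays compared alone gave 0 for TLR2.CD86, 0 for anti-CD40 and 1 for anti-CD40+Pam2CSK4 against Pam2CSK4. Slide 1 arrays alone, where a lone array is assumed to vary like the others, gave 4 for TLR2.CD86 and 5 for anti-CD40. The median over probes gave 0 for TLR2.CD86, and no moderation 3 for anti-CD40+Pam2CSK4. Leaving out 1 array gave 0 to 0 for TLR2.CD86, 2 to 2 for anti-CD40, 3 to 3 for anti-CD40+Pam2CSK4 and 2 to 4 against Pam2CSK4; Myc and Ppat stayed called with anti-CD40 and with anti-CD40+Pam2CSK4, while Sms, Paics, Srm with anti-CD40, Nme1 and Umps with both agents lost their calls without any array of their comparison. Interaction counts were 0 throughout. Apart from comparisons with unstimulated cells, single-gene values were followed only where called without or with the slide term. Sign changes of other interaction values are therefore not listed.

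With the replicate number as a block the counts were 1 for anti-CD86, 4 for TLR2.CD86 and 2 for anti-CD40+Pam2CSK4 against anti-CD40, and within 1.5 times otherwise; the samples share only a number. The cause of these shifts was not tested.

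Values that changed sign were, for Pam2CSK4, Srm -0.0036 (array median), Ppat -0.0271 (array median) and -0.0095 (median over probes), Impdh2 -0.11 (array median) and -0.10 to 0.27 without 1 array, and Umps 0.0261 (quantile), 0.0169 (normexp), 0.13 (slide term or slide 1 alone) and -0.27 to 0.13 without 1 array. For anti-CD86 they were Srm 0.0736 (quantile), 0.0417 (normexp), 0.12 (slide term), 0.11 (slide 1 alone) and -0.20 to 0.11 without 1 array, Impdh2 -0.0899 (array median) and -0.0763 to 0.18 without 1 array, and Umps 0.0076 (slide term). For TLR2.CD86 they were Srm -0.13 (array median) and -0.03 to 0.35 without 1 array, Ppat 0.0158 (quantile), Impdh2 -0.0825 (array median) and -0.0421 to 0.45 without 1 array, and Umps 0.0244 (quantile), 0.094 (slide term), 0.18 (slide 1 alone) and -0.39 to 0.18 without 1 array. For anti-CD40 they were Odc1 -0.55 (array median) and -0.17 to 0.20 without 1 array, Sms 0.0197 (quantile), Nme1 -0.24, Impdh2 -0.42 and Umps -0.30 (array median), and Impdh2 -0.0618 to 0.36 without 1 array. For anti-CD40+Pam2CSK4 it was Cad 0.0025 (median over probes). Array-median scaling moved the share of calls that were higher from 31.6% to 62.9% for TLR2.CD86 and from 67.5% to 42.7% for anti-CD40+Pam2CSK4 against Pam2CSK4. Normexp moved it from 69.6% to 39.9% for Pam2CSK4, from 25% to 61.5% for TLR2.CD86 against Pam2CSK4 (51.4% by quantile normalization) from 76.1% to 51.5% for TLR2.CD86 against anti-CD86, and from 33.3% to 50% and 45.2% to 57.4% for the interactions of Pam2CSK4 with anti-CD86 and with anti-CD40.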
